A study of Mus musculus with 25 samples.

Results

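MERVL is an endogenous retrovirus of the mouse, and its copies in the genome are annotated as an internal part, MERVL-int, and as long terminal repeats (LTRs), MT2_Mm. The copies examined here were all autosomal entries of these families in the deposited count table, 1318 MERVL-int and 2145 MT2_Mm, which made 3463 of 1573105 autosomal repeat copies. They were chosen by family name and position, not by their values. A further 109 MERVL-int and 169 MT2_Mm copies on X, 12 and 28 on Y, and 22 and 24 on unplaced sequences stayed outside the main comparisons, as the study left out the sex chromosomes.

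RNA was sequenced from pools of 5 to 10 wild-type late two-cell embryos collected 28 to 29 h after insemination or activation, in 25 libraries of 11 groups. The 4 IVF libraries came from C57BL/6N oocytes and DBA2 sperm. Somatic cell nuclear transfer (SCNT) embryos were made from BDF1 (C57BL/6N x DBA2) oocytes and nuclei of BDF1 cumulus cells, the cells that surround the oocyte, so the strain of the oocyte and the sex of the embryos changed together with the method. Control SCNT embryos were kept in cytochalasin B after activation without further treatment (2 libraries), and SCNT-*Kdm3a* and SCNT-*Kdm4d* embryos (2 each) had in addition received 10 pL of mRNA at 1500 ng/μL. *Kdm3a* encodes a demethylase of H3K9me1/2, and *Kdm4d* one of H3K9me2/3. In the cumulus clone groups latrunculin A (LatA) replaced cytochalasin B. They were a LatA control (2 libraries) and embryos treated with trichostatin A (TSA), a histone deacetylase inhibitor (25 nM for 8 h, 2 libraries), with a G9a inhibitor at 1 µM for 24 h, either RK-701 (spelled R701 in the labels, 3 libraries) or A366 (2). A further 3 groups received TSA together with RK-701, with A366 or with UNC0638 (2 each). G9a and GLP write H3K9me1/2. Each treated cumulus clone group was set against the same LatA control, and both untreated controls against the same IVF libraries. Fewer transcribing embryos in a pool and less RNA per embryo cannot be told apart in such libraries.

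MERVL is known for a burst of transcription in the two-cell embryo, at the time when the embryo's own genome is first transcribed. The MT2_Mm LTR holds the promoter, and transcripts start in the LTR at the 5′ end, run through the internal part and end in the LTR at the 3′ end. Many copies have lost the internal part by recombination between the LTRs and remain as solo LTRs, some of which serve as promoters of neighbouring genes. The homeodomain protein Dux is a known activator, and H3K9 methylation by enzymes that include G9a, SETDB1 and their cofactors is known to silence the family in later cells.

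The copies fell into classes by the annotation. Of 1318 MERVL-int copies, 536 belonged to 501 complete proviruses, with an LTR of the same strand on both sides and a median span of 6431 bp. The other 782 MERVL-int copies were shorter, with a median of 780 bp against 5325 bp. Of 2145 MT2_Mm copies, 501 each were the 5′ and the 3′ LTR of a complete provirus, 226 lay next to an incomplete internal part, 21 were of other kinds and 896 were solo LTRs without MERVL-int within 1 kb. By position, 427 MERVL-int and 720 MT2_Mm copies overlapped a gene, 422 and 579 lay within 10 kb of one, and 469 and 846 lay farther away. No copy overlapped an annotated exon of the counted genes.

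The few LTR stretches that could be compared were nearly identical to each other, which matters because only read pairs with a single position in the genome were counted. Of 32851 RefSeq promoter windows of 300 bases (GRCm38.p6, 250 before and 50 after each annotated start), 7 lay wholly inside an MT2_Mm member, and between these 7 the identity of aligned bases was 95% to 99.6%. The annotated starts lay at positions 301 to 403 of copies of 492 to 498 bp. The following 3 windows are shown because each begins an annotated transcript inside an LTR of another class, and the capitals mark the 50 bases from the annotated start.
LOC105246046, 3′ LTR, chr15:102602758-102603057, plus strand: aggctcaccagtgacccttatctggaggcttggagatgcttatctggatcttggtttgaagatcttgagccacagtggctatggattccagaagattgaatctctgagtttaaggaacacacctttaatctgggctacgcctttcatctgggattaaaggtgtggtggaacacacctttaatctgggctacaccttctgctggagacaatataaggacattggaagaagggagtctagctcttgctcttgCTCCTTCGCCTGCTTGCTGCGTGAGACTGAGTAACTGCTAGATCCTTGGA
Gm12790, LTR next to an incomplete internal part, chr4:101975056-101975355, minus strand: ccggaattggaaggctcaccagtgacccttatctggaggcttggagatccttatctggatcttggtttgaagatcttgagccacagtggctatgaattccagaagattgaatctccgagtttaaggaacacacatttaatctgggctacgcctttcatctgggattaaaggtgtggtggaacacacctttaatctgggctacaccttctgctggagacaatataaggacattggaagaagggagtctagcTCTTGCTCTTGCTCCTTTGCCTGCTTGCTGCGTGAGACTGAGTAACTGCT
D17Ertd648e, solo LTR, chr17:11883140-11883439, minus strand: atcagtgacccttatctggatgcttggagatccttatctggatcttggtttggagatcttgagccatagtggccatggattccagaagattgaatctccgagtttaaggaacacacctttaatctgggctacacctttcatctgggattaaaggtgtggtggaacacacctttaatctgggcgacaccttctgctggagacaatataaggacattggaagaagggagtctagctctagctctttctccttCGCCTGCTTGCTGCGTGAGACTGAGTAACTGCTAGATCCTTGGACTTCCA
Motifs were searched without allowing a mismatch, and the windows cover only part of each LTR. The binding motif of Dux, searched on both strands, was found in 0 of the 7 windows and in 0.0335% of all windows. The TATA box TATAAA was found in 0 of the 7 and 13.6% of all. Each of the 7 windows did hold a stretch that differs from TATAAA only in its last base. Each also held a stretch that differs from the Dux motif only in its first and last bases. The counts of 0 therefore do not show that these LTRs lack a TATA box or a Dux site. The polyadenylation signal AATAAA was found in 1 of the 7, at position 279 of the window of Gm52608, and in 19.6% of all. The other windows ended before that site of the LTR, so their LTRs may hold the signal too. Of the 7 LTRs, 6 had enough reads to be tested and 0 of these were past the threshold by edgeR in the 10 comparisons described below (lowest adjusted p = 0.0827). The LTR of LOC105246046 had the most reads, with a mean of 221.0 per library, and ranged from 3.61 to 33.8 CPM in IVF and from 5.49 to 14.7 CPM in LatA controls.

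A library held between 6662727 and 21188688 reads on genes (median 13994840), and its reads on repeats numbered 716710 to 2967676. Levels are given as CPM, counts per 1000000 gene reads after TMM scaling over genes, so a level does not depend on what the other repeats did. A level per kilobase is used where classes of different length are compared. Tests used edgeR's quasi-likelihood model over all 25 libraries, with Benjamini-Hochberg adjustment over 669 repeat families, or over the 24153 single copies of every family with a mean of at least 10 reads. The latter held 1498 of the 3463 copies, 797 of them MT2_Mm and the others MERVL-int, with 95.3% of the reads on both families, while 142 of the 3463 copies had no read in any library. Summed levels of 8 two-cell genes lay between 818 and 1234 CPM in IVF, 879 and 1172 CPM in control SCNT embryos, which overlapped IVF, and 466 and 714 CPM in LatA controls. They were at 1595 to 1885 CPM in SCNT-*Kdm3a* embryos and at 1929 to 2017 CPM with TSA and UNC0638, above every IVF library, and at 278 to 931 CPM in the other 6 groups. Summed levels of 12 cumulus cell genes lay between 35.5 and 49.3 CPM in IVF and between 31.6 and 41.1 CPM in LatA controls, with *Fshr*, *Inhba* and *Ptx3* at 0 in IVF and *Hsd3b1*, *Lhcgr* and *Ptx3* at 0 in LatA controls. The part of these cells, of RNA from the oocyte and of the embryos' stage in the results below was not tested. Libraries were separate samples by their labels, so p-values measure the spread between pools of embryos.

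Both families had fewer reads in untreated SCNT embryos than in IVF embryos. MERVL-int had 7343 to 7899 CPM in the 4 IVF libraries, 3877 and 4366 CPM in control SCNT embryos, and 2790 and 3600 CPM in LatA controls. The groups did not overlap, and the means of the untreated SCNT groups were 54.1% and 42.0% of the IVF mean. Against IVF, control SCNT embryos were at −0.89 ± 0.17 on the log2 scale (± is the standard error; edgeR adjusted p = 0.00027) and LatA controls at −1.25 ± 0.17 (adjusted p = 1.7e-05). MT2_Mm had 4154, 4586, 5084 and 4483 CPM in IVF, 3011 and 2678 CPM in control SCNT embryos, and 1539 and 2677 CPM in LatA controls. All 4 untreated SCNT libraries lay below the lowest IVF library. Control SCNT embryos were at −0.69 ± 0.21 (edgeR adjusted p = 0.0124) and LatA controls at −1.12 ± 0.22 (adjusted p = 0.00043). The first of these was lost without control SCNT replicate 1 (adjusted p = 0.0513) or replicate 2 (adjusted p = 0.103). Of all 669 families, 43.9% were past the threshold in control SCNT embryos and 36.5% in LatA controls, but the median family moved the other way, by 0.44 and 0.33 on the log2 scale. Oocyte genes moved with the MERVL families in this comparison. The summed level of 6 of them lay between 1394 and 1778 CPM in IVF, between 1013 and 1184 CPM in control SCNT embryos and between 1003 and 1190 CPM in LatA controls, and 4 of the 5 tested were lower in LatA controls than in IVF (median log2 fold change −1.06, against 0.04 over all genes). This did not hold in all treated groups. With RK-701 alone they had 1877 to 2351 CPM, above every IVF library, and MERVL-int was at 46.2% of IVF. With TSA and UNC0638 they had 947 to 1227 CPM, and MERVL-int was at 83.6%. Both were low with TSA and RK-701 (716 to 868 CPM and 49.6%). The relation was not tested.

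**Figure D1:**
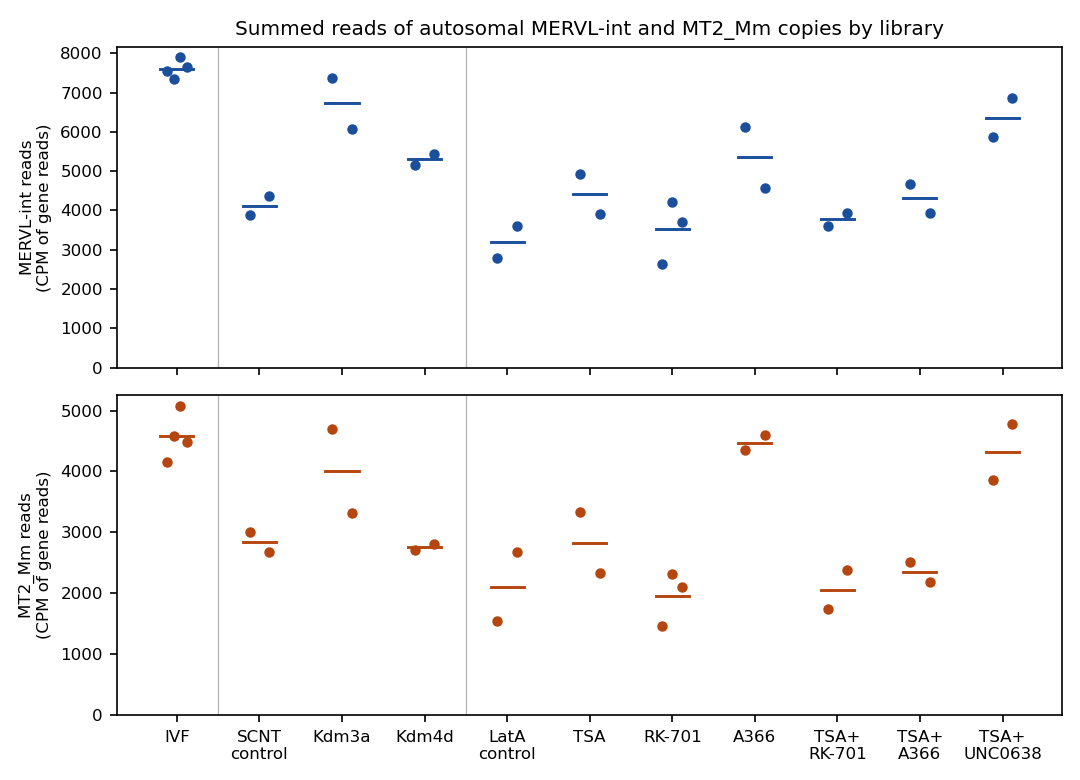
Summed CPM of autosomal MERVL-int (upper panel) and MT2_Mm copies (lower panel), with a point for each library and a line at each group's mean. The IVF libraries sit between 7343 and 7899 CPM for MERVL-int, and both untreated SCNT groups lie below them, while SCNT-*Kdm3a*, A366 and TSA with UNC0638 reach the highest levels among SCNT embryos.

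The decrease was spread over many copies. Against IVF, 663 of the 1498 tested copies (44.3%) were lower and 7 higher in LatA controls at an adjusted p under 0.05 and a fold change over 2, where 9.79% of all copies tested were lower and 12% higher. The median log2 fold change was −1.31 over the members and 0.27 over all copies. In control SCNT embryos 340 members (22.7%) were lower and 18 higher, where 8.28% of all copies were lower and 12.6% higher. The count of 663 became 318 without LatA control replicate 1, and the count of 340 became 141 and 167 without control SCNT replicates 1 and 2. The number of MERVL-int copies with at least 1 CPM ranged from 689 to 720 in IVF libraries, 625 to 644 in control SCNT and 492 to 580 in LatA controls. For MT2_Mm the mean number was 793.5, 576.0 and 447.0.

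**Figure D2:**
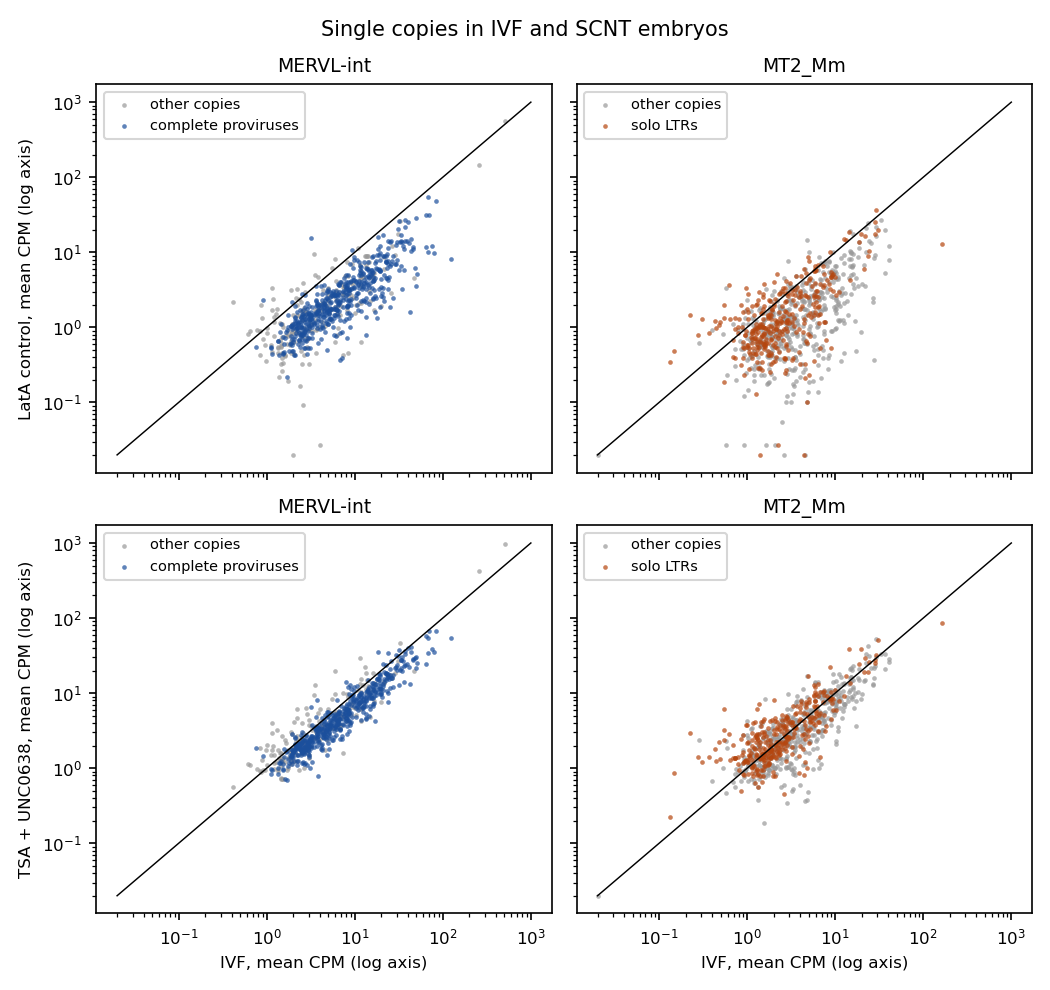
Mean CPM of each tested copy in IVF embryos (horizontal log axis) against LatA controls (upper panels) or embryos treated with TSA and UNC0638 (lower panels) on the vertical log axis, for MERVL-int (left) and MT2_Mm (right). Values under 0.02 CPM are drawn at 0.02, the line marks equal levels, and most points lie below it in LatA controls, where the median log2 fold change of the members was −1.31.

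Classes of copies stood at different shares of their IVF level in LatA controls, but the 2 libraries were far apart and differences between classes were not tested there. In LatA controls the internal parts of complete proviruses were at 34.6% of their IVF level, with 29.1% and 40.1% in the 2 libraries, and 317 of 500 tested copies were lower. The other MERVL-int copies were at 62.2% in all, but at 43.8% without the 2 copies with the most reads. The 3′ LTRs were at 39.0% (25.8% and 52.3% in the 2 libraries), the 5′ LTRs at 47.4% (38.1% and 56.6%) and solo LTRs at 54.1% (43.4% and 64.9%), so the ranges of the LTR classes overlapped. Of these classes, 153 of 339, 14 of 55 and 71 of 329 tested copies were lower, where 9.79% of all copies tested were lower. Only 55 of 501 5′ LTRs had enough reads to be tested against 339 of 501 3′ LTRs. The classes thus differed in reads per copy, and their counts of calls cannot be compared as sizes of change. The 3′ LTR held far more reads than the 5′ LTR, at 9.79 against 1.13 CPM per kilobase in IVF, and 3′ LTRs took 52.2% of MT2_Mm reads against 6.02% for 5′ LTRs. Solo LTRs had 3.92 and internal parts of complete proviruses 2.11 CPM per kilobase. The log2 ratio of solo LTRs to LTRs within 100 bp of MERVL-int differed by 0.03 between the 4 untreated SCNT and the 4 IVF libraries, with overlapping ranges (exact two-sided permutation p = 0.6). The annotation leaves a median gap of more than 100 bp between the internal part and the 3′ LTR, so many 3′ LTRs of complete proviruses lay outside that distance. With LTRs within 200 bp, a distance chosen after the data were seen, the difference was 0.32, with more solo LTR reads in untreated SCNT libraries (exact permutation p = 0.0286 before adjustment, the smallest possible). The log2 ratio of MT2_Mm to MERVL-int differed by 0.15 (exact permutation p = 0.314).

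Copies inside genes stayed at a higher share of their IVF level than copies 10 kb or more away, a difference that these designs could not call after adjustment. MERVL-int inside genes was at 40.1% of its IVF level in LatA controls and that away from genes at 33.2%. MT2_Mm was at 47.9% and 39.3%. In control SCNT embryos the same values were 55.7% and 48.3%, and 65.4% and 53.7%. The log2 ratio of inside to away lay between −0.17 and −0.15 in IVF and between 0.02 and 0.11 in untreated SCNT libraries for MERVL-int, a difference of 0.24. For MT2_Mm it lay between −0.15 and −0.04 in IVF and between 0.12 and 0.35 in untreated SCNT libraries, a difference of 0.30. The groups did not overlap in either family, and each exact two-sided permutation p was 0.0286, the smallest that 4 libraries against 4 can give, or 0.125 after adjustment over the 21 ratios tested. With so few libraries none of the 21 ratios could reach an adjusted p under 0.05. The adjusted values of the ratios, here and below, therefore decide nothing. Among single copies, 130 of 255 MERVL-int copies inside genes and 154 of 234 away were lower in LatA controls, and 66 of 278 and 130 of 317 MT2_Mm copies. Of all copies tested, 9.79% were lower there. Reads of introns of unspliced host genes are counted with the copies inside genes, and their part was not tested.

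Injection of demethylase mRNA gave a call for MERVL-int with *Kdm3a* and not with *Kdm4d*, while the direct comparison of both groups gave none. MERVL-int had 7385 and 6087 CPM in SCNT-*Kdm3a* embryos, both above the control SCNT libraries at 3877 and 4366 CPM, or 0.71 ± 0.19 on the log2 scale (edgeR adjusted p = 0.0251, with 5.68% of families past the threshold). The call was lost without control SCNT replicate 1 (adjusted p = 0.223), control SCNT replicate 2 (adjusted p = 0.0718) or SCNT-*Kdm3a* replicate 1 (adjusted p = 0.153). It was also lost for copies inside genes alone (0.51, adjusted p = 0.162) and away from genes alone (0.62, adjusted p = 0.134), in complete proviruses alone (0.59, adjusted p = 0.12) and without the 2 copies with the most reads (0.59, adjusted p = 0.0993). MT2_Mm had 4696 and 3325 CPM, a log2 fold change of 0.50 (adjusted p = 0.254). In SCNT-*Kdm4d* embryos MERVL-int had 5153 and 5443 CPM, a log2 fold change of 0.36 (adjusted p = 0.164), and MT2_Mm 2713 and 2816 CPM, a log2 fold change of −0.04 (adjusted p = 0.913), where 17.3% of families were past the threshold and the median family moved by −0.39. With repeat reads in place of gene reads as the scale, MERVL-int was higher in SCNT-*Kdm4d* embryos by 0.78 (adjusted p = 0.00208). It was also called in a fit on the 4 compared libraries alone (0.36, adjusted p = 0.0139) and against LatA controls (0.73, adjusted p = 0.0291), and MT2_Mm was called in SCNT-*Kdm3a* embryos against LatA controls (0.93, adjusted p = 0.0156). Set against each other, SCNT-*Kdm4d* minus SCNT-*Kdm3a* was −0.35 for MERVL-int (95% interval −0.71 to 0.02, adjusted p = 0.211) and −0.54 for MT2_Mm (95% interval −1.0 to −0.07, adjusted p = 0.135), with 7.92% of families past the threshold. Among single copies, 31 members (2.07%) were higher in SCNT-*Kdm3a* embryos against 1.78% of all copies, and 11 (0.734%) in SCNT-*Kdm4d* embryos against 0.7%. These shares were near the background. The count of 31 became 14 and 12 without control SCNT replicates 1 and 2 and 7 without SCNT-*Kdm3a* replicate 1, and that of 11 became 1 or 2 without any 1 of its 4 libraries. DESeq2 gave 64 and 22, and repeat reads as the scale gave 48 for *Kdm4d*. The shares of all copies under these settings are not given here. The median log2 fold change of the members was 0.53 and 0.17, against 0.04 and −0.16 over all copies.

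Each inhibitor alone was set against LatA controls. TSA gave 4920 and 3914 CPM of MERVL-int, both above the controls, and a log2 fold change of 0.47 (adjusted p = 0.276 from edgeR), and MT2_Mm changed by 0.43 (adjusted p = 0.532), with 0.598% of families past the threshold. By copy, 0 members were higher or lower by edgeR against 0.149% of all copies higher. At an unadjusted p under 0.05, 157 were higher and 13 lower, and DESeq2 called 10 higher. The shares of all copies at these 2 settings are not given here, so such counts cannot be read against a background. RK-701 gave 2635, 4217 and 3706 CPM of MERVL-int, which overlapped the controls (log2 fold change 0.14, adjusted p = 0.614), and 1468, 2314 and 2106 CPM of MT2_Mm (−0.10, adjusted p = 0.777), where 13.8% of families were past the threshold. With RK-701, 10 members were higher and 3 lower (0.668% higher against 0.356% of all copies, and 0.2% lower against 1.03%). The count of 10 became 23 and 0 without LatA control replicates 1 and 2, and 2 and 0 without RK-701 replicates 2 and 3. A366 gave 6134 and 4570 CPM of MERVL-int (0.74, adjusted p = 0.0586) and 4350 and 4600 CPM of MT2_Mm, which both lay above the controls at 1539 and 2677 CPM. The log2 fold change of MT2_Mm with A366 was 1.09 ± 0.24 (edgeR adjusted p = 0.026), with 0.897% of families past the threshold, ORR1A0 among them, and was not called without LatA control replicate 1 (0.74, adjusted p = 0.272), A366 replicate 1 (adjusted p = 0.0797) or A366 replicate 2 (adjusted p = 0.133), in the compared libraries alone (adjusted p = 0.929) or against control SCNT embryos (0.65, adjusted p = 0.258). With A366, 26 members (1.74%) were higher and 0 lower against 0.464% of all copies higher. At an unadjusted p under 0.05, 554 were higher and 5 lower, and DESeq2 called 120 higher, again without a share over all copies. The count of 26 moved to 83 without LatA control replicate 2, to 2 without replicate 1, and to 9 and 6 without A366 replicates 1 and 2.

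With TSA added, UNC0638 gave a call for both families and RK-701 and A366 for neither. Embryos treated with TSA and UNC0638 had 5879 and 6852 CPM of MERVL-int, both above every LatA control, and were higher by 0.99 ± 0.19 on the log2 scale (edgeR adjusted p = 0.00144). MT2_Mm had 3865 and 4782 CPM and was higher by 1.04 ± 0.24 (adjusted p = 0.00656), with 14.9% of families past the threshold. MT2_Mm was not called without LatA control replicate 1 (0.69, adjusted p = 0.0657) or UNC0638 replicate 2 (0.87, adjusted p = 0.0759), or against control SCNT embryos (0.60, adjusted p = 0.0795). TSA with RK-701 gave 3608 and 3944 CPM of MERVL-int (log2 fold change 0.24, adjusted p = 0.348) and 1737 and 2385 CPM of MT2_Mm (−0.03, adjusted p = 0.932), where 28.7% of families were past the threshold and the median family moved by −0.40. TSA with A366 gave 4680 and 3939 CPM of MERVL-int (0.43, adjusted p = 0.0812) and 2511 and 2183 CPM of MT2_Mm (0.16, adjusted p = 0.642), where 31.7% of families were past the threshold and the median family moved by −0.47. A fit on the 4 compared libraries alone gave the same sizes for TSA and UNC0638 without a call (adjusted p = 0.125 and 0.175), and 0 called copies in this and the other comparisons among SCNT groups. With repeat reads in place of gene reads as the scale, MERVL-int was also higher with TSA and RK-701 (0.66, adjusted p = 0.00353), and both families with TSA and A366 (0.89, adjusted p = 0.00026, and 0.63, adjusted p = 0.0245). By copy, 161 members (10.7%) were higher and 0 lower with TSA and UNC0638 against 2.91% of all copies higher, and the median log2 fold change was 1.03 over the members and −0.02 over all copies. At an unadjusted p under 0.05, 647 were higher and 1 lower, and DESeq2 called 264 higher, both without a share over all copies beside them. The count of 161 was 65 and 102 without LatA control replicates 1 and 2, and 89 and 48 without UNC0638 replicates 1 and 2. TSA with RK-701 gave 11 higher members (0.734% against 1.21% of all copies) and TSA with A366 gave 33 (2.2% against 1.81%), shares at or near the background. The count of 33 became 14 and 12 without LatA control replicates 1 and 2, and 3 and 6 without A366 replicates 1 and 2.

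**Figure D3:**
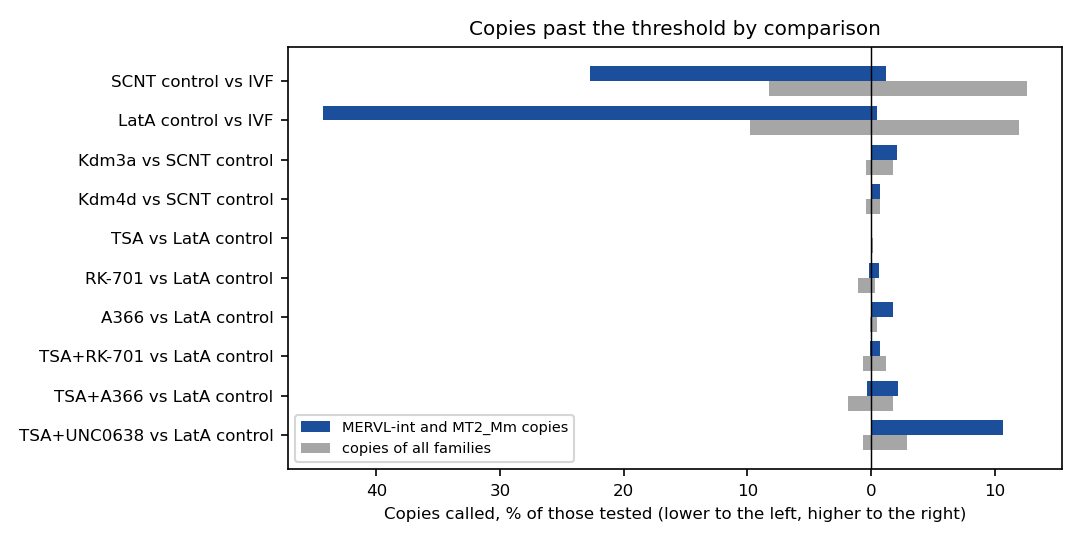
Percent of tested copies past the threshold in each comparison, lower to the left and higher to the right of 0, for the 1498 MERVL-int and MT2_Mm copies (blue bars) and for copies of all families (grey bars). Members stand above the background among lower copies against IVF (44.3% against 9.79% in LatA controls) and among higher copies with TSA and UNC0638 (10.7% against 2.91%).

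The G9a inhibitors were compared with each other at the same dose and time in 4 pairs. Alone, A366 gave more reads than RK-701 by 0.60 on the log2 scale for MERVL-int (95% interval 0.27 to 0.94, adjusted p = 0.0135 from edgeR) and by 1.19 for MT2_Mm (95% interval 0.77 to 1.61, adjusted p = 0.00063), with 25.9% of families past the threshold. The call for MERVL-int was lost without A366 replicate 1 (adjusted p = 0.257) or RK-701 replicate 1 (adjusted p = 0.071), and with repeat reads as the scale (0.28, adjusted p = 0.156). With TSA, A366 and RK-701 differed by 0.19 for MERVL-int (95% interval −0.17 to 0.56) and by 0.19 for MT2_Mm (95% interval −0.28 to 0.65). Of all families 0% were past the threshold in that pair by edgeR, 28 of 669 had an unadjusted p under 0.05, and DESeq2 called 0. With TSA, UNC0638 gave more reads than RK-701 by 0.75 for MERVL-int (95% interval 0.39 to 1.12, adjusted p = 0.018) and 1.07 for MT2_Mm (95% interval 0.60 to 1.54, adjusted p = 0.0102), with 7.03% of families past the threshold. The first call was lost without RK-701 replicates 1 or 2 (adjusted p = 0.136 and 0.102) or UNC0638 replicate 2 (adjusted p = 0.176) and with repeat reads as the scale (0.46, adjusted p = 0.0789), and the second without RK-701 replicate 1 (adjusted p = 0.136) or UNC0638 replicate 2 (adjusted p = 0.128). UNC0638 gave more than A366 by 0.56 for MERVL-int (95% interval 0.20 to 0.93, adjusted p = 0.0568) and by 0.88 for MT2_Mm (95% interval 0.41 to 1.35, adjusted p = 0.0216), with 10% of families past the threshold, and the latter was lost without A366 replicate 1 or 2 (adjusted p = 0.084 and 0.206) or UNC0638 replicate 2 (adjusted p = 0.191) and with repeat reads as the scale (0.55, adjusted p = 0.102). UNC0638 without TSA was not analysed here.

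Whether TSA and an inhibitor acted additively was tested as an interaction. For RK-701 it was −0.37 on the log2 scale for MERVL-int (adjusted p = 0.625 from edgeR) and −0.36 for MT2_Mm (adjusted p = 0.724). Of all families 0% were past the threshold by edgeR, 76 of 669 had an unadjusted p under 0.05, and DESeq2 called 3. For A366 it was −0.78 for MERVL-int (adjusted p = 0.0621) and −1.36 for MT2_Mm (adjusted p = 0.0224), with 8.67% of families past the threshold and a median over families of −0.49. The combination of TSA and A366 thus gave less MT2_Mm than both single treatments would on an additive log2 scale. The ORR1A0 family moved in the same way (−1.26, adjusted p = 0.0287 from edgeR). The interaction for MT2_Mm was not called without LatA control replicate 1 (−1.01, adjusted p = 0.128), TSA replicate 1 (−1.07, adjusted p = 0.161), A366 replicate 1 (adjusted p = 0.0716), or either library of TSA with A366 (adjusted p = 0.0551 and 0.0832), with repeat reads as the scale (−0.87, adjusted p = 0.0752), or in the compared libraries alone (adjusted p = 0.181).

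Treated embryos were also set against IVF directly. SCNT-*Kdm3a* embryos had 88.5% of the IVF level of MERVL-int and 87.6% of that of MT2_Mm, with log2 fold changes of −0.18 (95% interval −0.50 to 0.14, adjusted p = 0.408 from edgeR) and −0.19 (95% interval −0.60 to 0.22, adjusted p = 0.487), where 33.3% of families were past the threshold. TSA with UNC0638 had 83.6% and 94.5%, with −0.26 (95% interval −0.58 to 0.06, adjusted p = 0.343) and −0.08 (95% interval −0.49 to 0.32, adjusted p = 0.836), where 10.2% of families were past the threshold. Neither family was called in these 2 groups, and the approximate intervals leave room for a loss of 0.60 or somewhat more on the log2 scale. With repeat reads as the scale, MERVL-int was lower than in IVF in both (−0.59, adjusted p = 0.00346, and −0.44, adjusted p = 0.0268) and MT2_Mm in SCNT-*Kdm3a* embryos (−0.61, adjusted p = 0.0145). SCNT-*Kdm4d* embryos stayed lower than IVF by −0.52 for MERVL-int (adjusted p = 0.0473) and −0.73 for MT2_Mm (adjusted p = 0.0325), with 10% of families past the threshold. Both calls were near the threshold, and MERVL-int lost its call without any 1 of the 6 libraries (adjusted p from 0.0673 to 0.281), MT2_Mm without any but IVF replicate 1 (adjusted p from 0.0523 to 0.223). TSA with RK-701 stayed at 49.6% and 45.0% of IVF (−1.01, adjusted p = 0.00023, and −1.15, adjusted p = 0.00092, with 13.5% of families past the threshold), where MT2_Mm without RK-701 replicate 1 gave −0.94 (adjusted p = 0.0503). TSA with A366 stayed at 56.6% and 51.3% (−0.82, adjusted p = 0.0018, and −0.96, adjusted p = 0.00401, with 13.8% of families past the threshold), and both calls were lost without the second library of that group (adjusted p = 0.0709 and 0.0941).

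In treated embryos the classes reached different shares of their IVF level, and these differences between classes were not tested. In embryos treated with TSA and UNC0638 the internal parts of complete proviruses were at 69.5% of IVF, the 3′ LTRs at 83.3%, the 5′ LTRs at 103% and solo LTRs at 107%. In SCNT-*Kdm3a* embryos the same classes were at 74.6%, 74.2%, 99.0% and 102%. With A366 alone they were at 61.9%, 98.8%, 105% and 94.6%, and with TSA and RK-701 at 36.2%, 38.2%, 42.6% and 56.0%. MERVL-int outside complete proviruses reached 126% of IVF in SCNT-*Kdm3a* embryos, 122% with TSA and UNC0638 and 86.3% with TSA and RK-701. Without the 2 copies with the most reads these values were 89.6%, 86.8% and 42.9%. The inside to away ratio was lower in the 6 libraries with TSA and an inhibitor than in the 2 LatA controls, by 0.14 on the log2 scale for MERVL-int and 0.18 for MT2_Mm without overlap (exact permutation p = 0.0357, the smallest this design allows, 0.125 after adjustment). In the 4 demethylase libraries against 2 controls it was lower by 0.10 in both families (exact permutation p = 0.133 and 0.333, where the smallest possible is 0.0667).

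**Figure D4:**
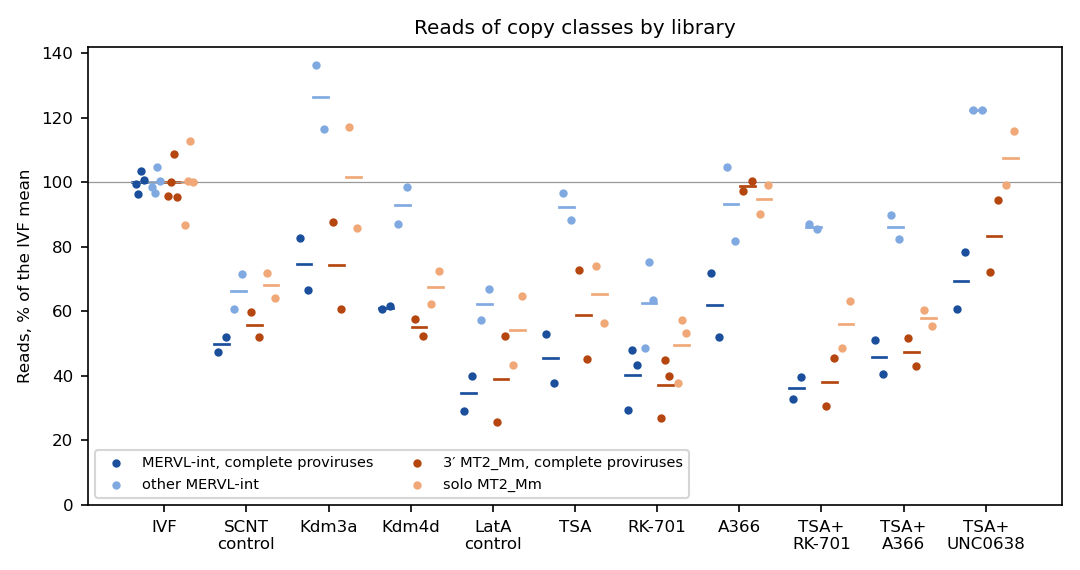
Reads of 4 classes of copies as a percent of the IVF mean in each library, with a line at each group's mean and the IVF level at 100. In LatA controls complete proviruses have the lowest means (34.6% for MERVL-int and 39.0% for 3′ LTRs), and in embryos treated with TSA and UNC0638 they reach 69.5% and 83.3% while solo LTRs reach 107%.

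A pair of MERVL-int copies held a large share of the family's reads, and they differed from each other. The copy at chr14:57417436-57419173 (mm10, minus strand, 1738 bp, 4889 bp from *Ift88*) took 6.73% of MERVL-int reads in IVF and 23.9% in embryos treated with TSA and RK-701. It had 521, 534, 501 and 493 CPM in IVF, 418 and 492 in control SCNT embryos and 470 and 659 in LatA controls, and it was not past the threshold against IVF (log2 fold change −0.17, adjusted p = 0.561, and 0.14, adjusted p = 0.632, from edgeR). It had 1001 and 946 CPM in SCNT-*Kdm3a* embryos (1.10 ± 0.23 on the log2 scale, edgeR adjusted p = 0.0143), 653 and 794 in SCNT-*Kdm4d* embryos and 1078 and 981 with TSA alone. The levels were 949 and 857 CPM with TSA and RK-701, 815 and 830 with TSA and A366, and 1038 and 882 with TSA and UNC0638, all above every IVF library, but none of these was past the threshold against LatA controls. RK-701 alone gave 318, 524 and 380 CPM, and A366 alone gave 951 and 749.

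The second copy, at chr6:37810165-37811074 (plus strand, 910 bp, 3615 bp from the pseudogene *Atp6v0c-ps2*), had 263, 233, 273 and 248 CPM in IVF. It had 110 and 178 CPM in control SCNT embryos and 200 and 94.8 in LatA controls, below every IVF library as for the whole family, at log2 fold changes of −0.82 (adjusted p = 0.0477, less than 2-fold) and −0.79 (adjusted p = 0.0551). With TSA alone it had 111 and 196 CPM, within 0.06 of LatA controls on the log2 scale. In SCNT-*Kdm3a* embryos it had 514 and 409 CPM (1.68 ± 0.33 on the log2 scale, edgeR adjusted p = 0.0102) and with TSA and UNC0638 466 and 387 CPM (1.53 ± 0.33, adjusted p = 0.0139), both groups above IVF. Together this copy and the one near *Ift88* held 10.1% of MERVL-int reads in IVF, 22.3% in LatA controls and 32.1% with TSA and RK-701. They were short fragments outside complete proviruses, and the 3 MERVL-int copies next in rank were whole internal parts, at chr7:122911542-122916896 (48790 bp from *Rbbp6*), chr9:35388961-35394323 (25848 bp from *2610105M22Rik*) and chr11:60651884-60657186 (inside *Gm12619*). The chr7 copy had 77.1 to 88.7 CPM in IVF and 38.1 and 57.0 in LatA controls, and none of these 3 was past the threshold in any comparison.

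**Figure D5:**
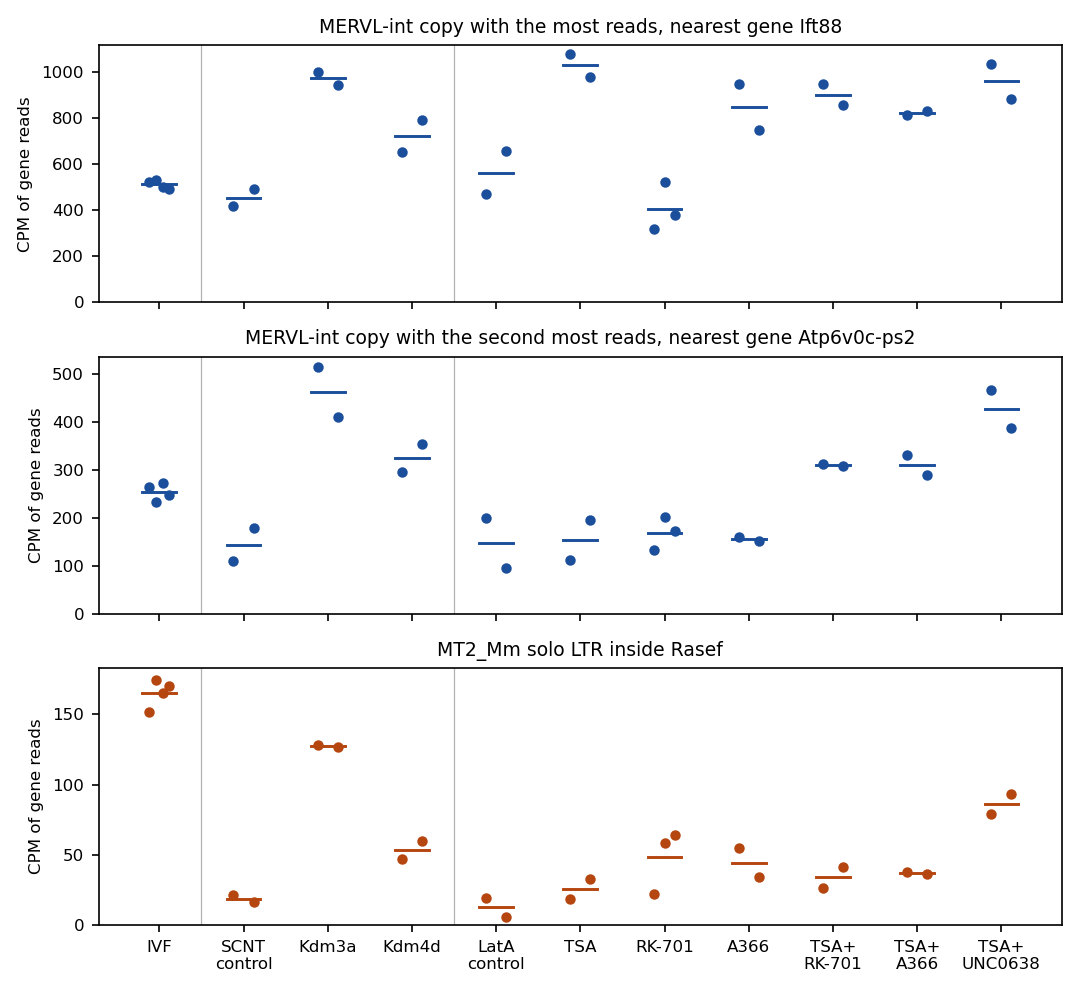
CPM in each library of the MERVL-int copies with the most reads, near *Ift88* (top) and near *Atp6v0c-ps2* (middle), and of the MT2_Mm solo LTR inside *Rasef* (bottom), with a line at each group's mean. The copy near *Ift88* is as high in untreated SCNT embryos (418 to 659 CPM) as in IVF (493 to 534 CPM), while the LTR inside *Rasef* falls from 151 to 174 CPM in IVF to at most 21.1 CPM in untreated SCNT embryos.

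The MT2_Mm copy with the most reads was a solo LTR of 515 bp inside *Rasef*, on the strand opposite to that gene (chr4:73723208-73723722, plus strand). It had 151, 174, 165 and 170 CPM in IVF, 21.1 and 16.5 in control SCNT embryos and 19.5 and 6.05 in LatA controls, without overlap. The log2 fold change against IVF was −3.13 in control SCNT embryos (adjusted p = 0.0003 from edgeR) and −3.68 ± 0.49 in LatA controls (adjusted p = 9.81e-05), a level 12.8-fold lower. It had 128 and 127 CPM in SCNT-*Kdm3a* embryos, 6.76-fold above their control (adjusted p = 0.00617), and 79.0 and 93.2 CPM with TSA and UNC0638, 6.69-fold above LatA controls (adjusted p = 0.00589). RK-701 alone gave 22.1, 58.7 and 64.4 CPM, 3.76-fold above LatA controls (adjusted p = 0.0433), and SCNT-*Kdm4d* embryos had 46.9 and 59.5 CPM, which was not past the threshold. Even the highest SCNT library, at 128 CPM, stayed below the lowest IVF library.

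The other MT2_Mm copies with the most reads showed no call in any comparison. The 3′ LTR at chr11:60651278-60651769 and the 5′ LTR at chr11:60657187-60657678 belonged to the provirus inside *Gm12619* and had 33.1 to 47.3 and 24.4 to 33.1 CPM in IVF. The solo LTR at chr11:24459748-24460241 inside *Gm12068* had 0.310 CPM (2 reads) in IVF replicate 1 and 35.8 to 41.8 CPM in the other IVF libraries. The 3′ LTR at chr2:10177176-10177667 inside *Itih5*, on the strand opposite to that gene, had 15.3 to 29.1 CPM in IVF and 25.5 and 23.2 in LatA controls.

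Some LTRs with few reads were silent or higher in LatA controls. No read was counted in either LatA control on the 5′ LTR at chr13:97732460-97732964 (534 bp from *5330416C01Rik*), the solo LTR at chr15:47029212-47029687 (84764 bp from *Gm23665*) and the 3′ LTR at chr6:55653533-55654025 (23797 bp from *Neurod6*). In IVF they had 0.995 to 6.61, 3.89 to 5.28 and 1.74 to 3.48 CPM. The IVF means were at least 44.6-fold, 43.1-fold and 25.8-fold above a limit of 3 reads over both LatA control libraries. For LatA controls against IVF the adjusted p was 0.0446, 0.00093 and 0.0001 from edgeR. The spread between IVF libraries is not part of these limits, and a choice by fold change favours copies without reads. The opposite was seen for solo LTRs at chr8:55440687-55441228, at chr11:90701846-90702333 (13480 bp from *Tom1l1*) and at chr11:21293687-21294204 inside *Vps54*, a gene of the vesicle trafficking machinery. The LTR inside *Vps54* had 0.620 to 1.17 CPM in IVF and 3.09 and 3.54 in LatA controls, 3.36-fold higher (adjusted p = 0.006 from edgeR). The LTR on chromosome 8 had 0 to 0.908 CPM in IVF and 4.23 and 3.07 in LatA controls, 5.40-fold higher (adjusted p = 0.00478).

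Of the few calls with TSA and RK-701, the copies with the largest changes are described here. The 3 higher ones had a low level in LatA controls, which a choice by fold change favours. The 11 higher members (0.734%, against 1.21% of all copies) became 6 without LatA control replicate 2, 7 and 2 without the first and second library of the treated group, and 0 in the compared libraries alone. The solo LTR at chr15:28675908-28676401 (42266 bp from *Gm8484*) had 0.271 and 0.838 CPM in LatA controls (5 and 9 reads) and 3.63 and 4.46 CPM with TSA and RK-701, 7.55-fold higher (standard error 0.61 on the log2 scale, adjusted p = 0.0188 from edgeR). It had 1.6 to 3.23 CPM in IVF and was also higher with TSA and UNC0638 (4.24 and 5.08 CPM, adjusted p = 0.00935). The 5′ LTR at chr5:70548238-70548729 (2112 bp from *Gm26072*) had 2 and 0 reads in LatA controls and 1.55 and 1.88 CPM with TSA and RK-701 (adjusted p = 0.00564), and it was past the threshold in each of the 5 groups with a G9a inhibitor. Its levels were 0.508 to 0.851 CPM with RK-701, 1.09 and 0.892 with A366, 1.5 and 3.58 with TSA and A366, and 4.16 and 4.12 with TSA and UNC0638, against 1.86 to 3.44 in IVF. Untreated control SCNT embryos had 0.718 to 0.775 CPM, within the range with RK-701 alone. The calls thus rest on the near absence of reads in LatA controls. The MERVL-int fragment at chr5:70558527-70559124 (2141 bp from *Gm42653*) had 1 and 0 reads in LatA controls, 1.08 and 0.907 CPM with TSA and RK-701 (adjusted p = 0.0264) and 17.5 and 10.0 CPM in SCNT-*Kdm3a* embryos, where the IVF level was 3.41 to 4.60 CPM. The 1 member lower with TSA and RK-701 was the solo LTR at chr7:129807505-129808001 (25045 bp from *Gm44778*), with 3.37 and 6.33 CPM in LatA controls and 0.309 and 0.349 with the treatment, 14.3-fold lower (adjusted p = 0.0125 from edgeR), and it was also lower with TSA and A366 (adjusted p = 0.0272).

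Related families were measured in the same libraries. MT2C_Mm and MT2B are older LTRs of the ERVL group, and ORR1A0 is an LTR of the MaLR group. MT2C_Mm was not lower than IVF in LatA controls (log2 fold change 0.03, 95% interval −0.24 to 0.31, adjusted p = 0.87 from edgeR), MT2B was (−0.38, adjusted p = 0.0342), and so was ORR1A0 (−0.94, adjusted p = 0.00168). The log2 ratio of MERVL-int to MT2C_Mm differed by −1.12 between untreated SCNT and IVF libraries, and that to MT2B by −0.73, both lower in SCNT without overlap (exact permutation p = 0.0286, adjusted 0.125), while that to ORR1A0 differed by −0.17 with overlap (exact permutation p = 0.343). TSA with RK-701, which gave no call for the MERVL families, raised MT2B by 0.64 (adjusted p = 0.00646) and MT2C_Mm by 0.51 (adjusted p = 0.0247). With TSA and UNC0638, MT2B was higher by 1.07 (adjusted p = 0.00026), MT2C_Mm by 0.89 (adjusted p = 0.00109) and ORR1A0 by 0.89 (adjusted p = 0.0197), next to 0.99 for MERVL-int and 1.04 for MT2_Mm, so the rise was not limited to the MERVL families. SCNT-*Kdm3a* embryos had more MT2C_Mm (0.83, adjusted p = 0.00342), MT2B (0.82, adjusted p = 0.00247) and ORR1A0 (0.86, adjusted p = 0.0324) than control SCNT embryos, and more MT2C_Mm than IVF (0.89, adjusted p = 0.00014).

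Genes known to act on MERVL were taken from a list of 10 activators and 20 repressors. The list was chosen with earlier results of these data known. It holds *Zscan4* and *Obox* genes, whose clusters the study described as resistant to reprogramming and derepressed by *Kdm3a* and *Kdm4d*. The counts of activators below are therefore not independent of those results. *Dux* (*Duxf3*) had too few reads to be tested. *Zscan4* and *Obox* genes have near-identical copies, so their counts are uncertain. In LatA controls 5 of the 9 tested activators were lower than in IVF and 0 higher, where 15.3% of all genes were past the threshold in either direction. They were *Zscan4c*, *Zscan4d* and *Zscan4f*, two-cell factors that activate MERVL, by −3.01, −4.45 and −4.88 on the log2 scale, and the homeobox genes *Obox3* (−3.08) and *Obox5* (−1.55). Of 18 tested repressors, *Ehmt2*, which encodes G9a, was higher by 1.6 and *Chaf1b*, a subunit of the histone chaperone CAF-1, by 1.00, and 0 were lower by this threshold. Lower by less than 2-fold were *Setdb1* (−0.78, adjusted p = 0.00703), *Hdac1* (−0.90, adjusted p = 0.011), *Zmym2* (−0.76, adjusted p = 0.00709) and *Uhrf1* (−0.64, adjusted p = 0.0157). Higher by less than 2-fold at an adjusted p under 0.05 were *Max* (0.74), *Chaf1a* (0.84), *Ehmt1* (0.66), *Kdm1a* (0.58) and *Dnmt1* (0.62). In SCNT-*Kdm3a* embryos 6 of 9 activators were higher than in control SCNT embryos (4.16% of all genes past the threshold), namely *Dppa2* (1.38) and *Dppa4* (1.21), which are needed for *Dux* expression, *Zscan4c* (2.85), *Zscan4d* (3.99), *Zscan4f* (4.18) and *Obox3* (3.08). The same 6 were higher in SCNT-*Kdm4d* embryos (3.14% of all genes), in which neither MERVL family was called. With TSA and RK-701, 4 of 9 were higher than in LatA controls (6.19% of all genes), namely *Dppa2* (1.18), *Dppa4* (1.14), *Zscan4d* (2.11) and *Obox3* (1.91), and 0 of 18 repressors were past both limits, where *Hdac2* (−0.86, adjusted p = 0.0166) and *Hdac1* (0.91, adjusted p = 0.0397) passed the adjusted p and not the fold change. Among repressors *Hdac2*, a histone deacetylase, was lower with *Kdm3a* (−1.06) and *Kdm4d* (−1.11), and *Hdac1* was higher with *Kdm4d* (1.11). Apart from the changes under 2-fold, all these values passed an adjusted p under 0.05 and a fold change over 2 in edgeR.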

How the data were processed

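The authors made libraries with SMART-Seq HT, removed adapters by Trimmomatic, mapped to mm10 by STAR, retained pairs with a single position and no mismatch, and counted them with featureCounts 1.6.2 without regard to strand, leaving out pairs on more than 1 feature. The deposited values are whole counts per gene and per repeat copy. Reads of near-identical copies and of DBA2 alleles that differ from the C57BL/6J reference are therefore undercounted. Gene symbols came from GENCODE M21.

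Copies were classified by their deposited coordinates. Inside means overlapping a gene span. An LTR within 200 bp of MERVL-int of the same strand made a provirus of 5 to 8 kb complete, in place of 100 bp, after a median gap of 125 bp was seen. Counts were summed by family and fitted with edgeR 4.0.16 in R 4.3.3, with gene reads as library sizes, TMM factors over genes, a term for each group, families and copies with a mean of at least 10 reads, and autosomal genes with at least 1. Ratios used a pseudocount of 0.5 reads and exact permutation tests (Python 3.11.15). Alternatives were DESeq2 1.42.0, other scalings, filters, a replicate block and leaving out libraries. Intervals are approximate 95% intervals, taken from the standard error of the fit with a normal quantile. They are therefore somewhat narrower than the test implies. The limit for 0 reads covers counting error only. Named copies are the 5 with the most reads per family, and up to 3 in each direction among those called with LatA controls against IVF and with TSA and RK-701 against LatA controls with the largest change and no library of the higher group under 10 reads. The members and lists were chosen with earlier results of these data known. The scripts were tested on simulated data.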

Additional observations from a re-analysis of the deposited data

Results flagged for a closer look

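In IVF embryos 3 of 42 sets of 4 libraries tested held a library farther from the others than the 95% critical value of Dixon's test allows, where chance gives about 5%. The 3′ LTR of the *Gm12619* provirus at chr11:60651278-60651769 had 47.3 CPM in IVF replicate 2 against 33.1 to 34.0 CPM in the others. The solo LTR inside *Gm12068* at chr11:24459748-24460241 had 0.310 CPM in IVF replicate 1 against 35.8 to 41.8 CPM. The solo LTR at chr15:28675908-28676401 had 3.23 CPM in IVF replicate 2 against 1.6 to 1.75 CPM.

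The response of MT2_Mm to A366 differed with the presence of TSA, by −1.36 on the log2 scale (edgeR interaction, adjusted p = 0.0224). It ranged from −1.81 to −1.01 when single libraries were left out. With repeat reads as the scale or in the compared libraries alone it was not called. The ORR1A0 family gave −1.26 (edgeR interaction, adjusted p = 0.0287), so the difference was not particular to MT2_Mm.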

How the results depend on the processing

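All values are log2 differences unless called counts. With 2 libraries in most groups, the single-copy counts followed the settings most. Copy counts under other settings, here and above, stand without the share of all copies called. They show how the counts moved and cannot be read against a background. MERVL-int and MT2_Mm stayed lower than IVF in LatA controls, and MERVL-int in control SCNT embryos, under every setting run.

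Same-numbered libraries did not deviate together (55 pairs of groups, correlations of −0.33 to 0.14, median 0.004, 5 over 0.1), so the numbers do not pair them. With a replicate block MT2_Mm was at −0.62 in control SCNT against IVF, MERVL-int at 0.71 with *Kdm3a*, MT2_Mm at 1.10 with A366, and *Kdm4d* against IVF at −0.49 and −0.67, each no longer called. Under the block the copy counts were 185 and 418 lower in control SCNT and LatA controls, and 0 higher with *Kdm4d*, 0 with RK-701, 2 with A366, and 4, 9 and 88 when TSA was joined by RK-701, A366 and UNC0638, and 1 repressor was higher in LatA controls. It changed no other call.

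Repeat reads as the scale gave for *Kdm4d* 0.78 and 0.38 (MERVL-int, then MT2_Mm), MT2_Mm 0.18 with RK-701, MERVL-int 0.67 with A366, TSA and RK-701 0.66 and 0.41, TSA and A366 0.89 and 0.63, *Kdm3a* against IVF −0.59 and −0.61, MERVL-int −0.44 with TSA and UNC0638 against IVF, the MT2_Mm TSA by A366 interaction −0.87, MERVL-int A366 minus RK-701 0.28, UNC0638 minus RK-701 0.46, MT2_Mm UNC0638 minus A366 0.55 and MERVL-int *Kdm4d* minus *Kdm3a* 0.036. The interaction, A366 minus RK-701, UNC0638 minus RK-701 and UNC0638 minus A366 were then no longer called. Chosen after seeing the data, this scale gave copy counts of 640 for control SCNT, 48 for *Kdm4d*, 22 for RK-701, and 53, 114 and 261 for TSA with RK-701, A366 and UNC0638.

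The other untreated control gave MT2_Mm 0.93 with *Kdm3a*, *Kdm4d* 0.73 and 0.39, MT2_Mm −0.0066 with TSA, MERVL-int −0.23 with RK-701, MT2_Mm 0.65 with A366, MERVL-int −0.13 with TSA and RK-701, MT2_Mm −0.28 with TSA and A366 and 0.60 with TSA and UNC0638. Inside genes MERVL-int was at 0.51 with *Kdm3a* and −0.047 with TSA and RK-701. Away from genes it was at 0.62 with *Kdm3a* and 0.59 for A366 minus RK-701, and MT2_Mm at 0.047 with *Kdm4d* and 0.042 with TSA and RK-701. Settings chosen after seeing the data gave MERVL-int 0.59 with *Kdm3a* without the 2 copies with the most reads and 0.59 for complete proviruses, and 0.32 for the solo ratio in untreated SCNT against IVF and −0.054 with TSA and an inhibitor when LTRs within 200 bp counted as next to MERVL-int.

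Without a filter, MT2_Mm *Kdm3a* 0.50, MERVL-int A366 0.74, TSA and A366 0.43, its interaction −0.78, UNC0638 minus A366 0.56 and MT2_Mm *Kdm4d* minus *Kdm3a* −0.54 were called. DESeq2 called MERVL-int A366 0.71, the interaction −0.76 and UNC0638 minus A366 0.56. Fits on the compared libraries only called MERVL-int *Kdm4d* 0.36, TSA and UNC0638 against IVF −0.26 and UNC0638 minus A366 0.56, and no longer MT2_Mm A366 1.09, TSA and UNC0638 0.99 and 1.04 or the MT2_Mm interaction −1.36.

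Copy counts in the order *Kdm3a*, *Kdm4d*, RK-701, A366 and TSA with RK-701, A366 and UNC0638 were 64, 22, 30, 120, 30, 57 and 264 with DESeq2 (10 with TSA alone), 0 in each with the compared libraries only, 15, 3, 2, 6, 2, 7 and 60 when a mean of 1 read sufficed (163 and 343 lower in control SCNT and LatA controls), and 19, 1, 1, 3, 3, 9 and 66 for copies with 10 reads in 2 libraries.

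Leaving out each library in turn gave ranges of −0.77 to −0.60 for MT2_Mm in control SCNT against IVF, 0.56 to 0.84 for MERVL-int with *Kdm3a*, −0.12 to 0.046 for MT2_Mm with *Kdm4d*, −0.033 to 0.33 and −0.45 to 0.35 with RK-701, 0.52 to 0.94 and 0.74 to 1.54 with A366, and for MT2_Mm −0.38 to 0.42, −0.19 to 0.61 and 0.69 to 1.49 with TSA and RK-701, A366 and UNC0638. Against IVF the ranges were −0.46 to 0.037 (MT2_Mm, *Kdm3a*), −0.56 to −0.48 and −0.77 to −0.67 (*Kdm4d*), −1.40 to −0.94 (MT2_Mm, TSA and RK-701), −0.95 to −0.70 and −1.07 to −0.87 (TSA and A366) and −0.24 to 0.063 (MT2_Mm, TSA and UNC0638). The TSA by A366 interaction ranged from −0.98 to −0.55 and −1.81 to −1.01, MERVL-int A366 minus RK-701 from 0.38 to 0.80, MT2_Mm with TSA from −0.023 to 0.43 for A366 minus RK-701, UNC0638 minus RK-701 from 0.64 to 0.86 and 0.86 to 1.32, and MT2_Mm UNC0638 minus A366 from 0.72 to 1.03. Copy counts ranged from 141 to 296 (control SCNT), 318 to 590 (LatA controls), 7 to 29 (*Kdm3a*), 1 to 2 (*Kdm4d*), 0 to 2 (TSA), 0 to 23 (RK-701), 2 to 83 (A366), 2 to 8, 3 to 14 and 48 to 102 (TSA with RK-701, A366 and UNC0638). Among ratios, solo to flanking LTRs in untreated SCNT against IVF ranged from −0.024 to 0.076. With TSA and an inhibitor, MT2_Mm to MERVL-int ranged from −0.35 to 0.083, MERVL-int to MT2C_Mm from −0.11 to 0.061 and to ORR1A0 from −0.40 to 0.050. With demethylase mRNA, MERVL-int to MT2C_Mm ranged from −0.046 to 0.11, to MT2B from −0.073 to 0.092 and to ORR1A0 from −0.46 to 0.42. The causes were not tested. Where a lone library remained in a group, it was assumed to vary like the other groups.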
